A study of Mus musculus with 16 samples.

Results

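The 67 genes described here are the protein-coding mouse genes of the replication-dependent histone clusters, out of 55536 genes in the count table, of which 22028 are protein-coding. They were chosen by name, as genes whose GENCODE M21 symbol begins with Hist1h, Hist2h, Hist3h or Hist4h, and no measured value entered that choice. The group itself was proposed with earlier results of these data known, so counts over its members are descriptions. There are 6 genes of linker histone H1, 18 of H2A, 18 of H2B, 12 of H3 and 13 of H4. On the mouse build GRCm38, 54 of them lie on chromosome 13, 10 on chromosome 3, 2 on chromosome 11 and 1 on chromosome 6. Another 3 genes with such names are pseudogenes and were left out.

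RNA came from the red portion of the gastrocnemius, an oxidative part of the calf, and from the visceral fat depot of 8 mice, all female. The 4 controls are labelled Cre-Control and the 4 knockouts Conditional MusMyD88-/-, a muscle knockout of MyD88, the adaptor protein of most Toll-like receptors and of the interleukin-1 receptor. Every mouse ran on a wheel for 5 weeks and then lived for 8 days with its movement restricted in a small cage, so no group shows unrestricted or sedentary animals. The labels do not give the promoter of the Cre, the strain or the age, and fat of the knockouts is labelled by the genotype of the animal, whose deletion was aimed at muscle. Levels below are counts scaled to a library total of 1000000 (CPM). Libraries held 15203806 to 21747345 counts in muscle and 13242243 to 19114782 in fat. The 10 myofibre markers summed to 114735 to 144106 CPM in muscle libraries and 488 to 5674 CPM in fat libraries, and the 8 adipocyte markers to 248 to 388 CPM and 5645 to 25477 CPM, so that each tissue carried the markers of its label. The lowest adipocyte sum in fat, 5645 CPM, belonged to control mouse 138, and comparisons of genotype in fat are therefore also given without that mouse.

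Replication-dependent histone genes supply the bulk of the proteins that package newly copied DNA, and their transcription and RNA processing rise in S phase of the cell cycle. Their mRNAs are the exception among messenger RNAs of animal cells in that they normally end in a short stem-loop instead of a poly(A) tail. The stem-loop binding protein SLBP and the U7 small nuclear ribonucleoprotein form that end, and the mRNAs are degraded when DNA synthesis stops. Some of these genes also give polyadenylated transcripts in cells that have left the cycle. The libraries here were made from total RNA after removal of ribosomal RNA and not by selection of poly(A), so that both kinds of transcript could be caught.

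An intact stem-loop, defined as a 6-base arm that starts with GG, a 4-base loop that starts with TT and the exact reverse complement of the arm, was found after the stop codon in the GENCODE M21 transcripts of 44 of the 67 genes. The 6 versions found are shown because they are the feature that defines these mRNAs, with both arms in capitals and the loop in lower case. The first occurs in 26 genes, among them Hist1h1c, Hist1h1d and Hist1h1e, the second in 7 genes, all of H4, and the third in 6 genes, among them Hist1h2bb and Hist1h3c. The fourth occurs in Hist1h4i and Hist2h4, the fifth in Hist1h4b and Hist1h4j, and the sixth in Hist2h2ac alone.
Version 1: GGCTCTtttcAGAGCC
Version 2: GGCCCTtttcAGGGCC
Version 3: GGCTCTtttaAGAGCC
Version 4: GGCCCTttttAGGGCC
Version 5: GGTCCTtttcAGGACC
Version 6: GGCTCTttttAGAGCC

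The transcript models fall into 4 kinds by where they end. In 22 genes the model runs 100 or more bases past the loop (151 to 4884 bases), in 22 it ends 3 to 74 bases after the loop, in 15 it stops fewer than 30 bases after the stop codon and so cannot hold a loop, and in 8 no such loop was found. These kinds were set after values had been seen and carry no test. Genes with models that run past the loop took 77.8% of the family's counts in muscle and 62.9% in fat, while genes with models that end near it took 7.27% and 13.4%. A longer model can also collect more counts, and 7 of the 10 genes with the most counts are of the first kind. Reads do not say here whether a molecule ended at the loop or beyond it.

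Near-identical copies and overlapping genes limit what can be said of single genes. A read length of 51 bases is given in the series, and 34 of the 67 genes share more than 50% of the 51-base stretches of their exons with another gene. The median share is 53.75%, 5 genes are shared throughout and 4 share nothing. These shares also count genes that overlap a member at the same place on either strand, which are not copies. Examples are Gm20628 for Hist2h2bb, Gm15444 for Hist2h2ab and Trim17 for Hist3h2a. The shares therefore overstate how many members have near-identical copies. How the counting treated reads with several possible places was not given in the sources used here. Values of genes with a high share are therefore uncertain. Exons of 21 members, among them all 18 of H2A, are overlapped by a gene on the other strand, and the strand setting of the counting is not given either. Exons of 7 members overlap another gene on their own strand, among them Hist1h2be with Hist1h1e.

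Of the 67 genes, 60 had at least 1 count. The 7 without any were Hist1h2ao, Hist1h2ap, Hist1h2bq, Hist1h2aa, Hist1h2ba, Hist2h3c1 and Hist2h2aa1. Of these, 5 share over 90% of their 51-base stretches with other genes, while Hist1h2aa shares 23.5% and Hist1h2ba 38.0%. Together the family made up 0.0214% of all counts in muscle and 0.0353% in fat. The summed level was 214.0 ± 14.8 CPM in muscle (SD, n = 8, from 197.4 to 236.7) and 353.3 ± 56.2 CPM in fat (SD, n = 8, from 258.1 to 429.6). No fat library was below the highest muscle library on this scale. The order turned with the scaling. After division by TMM factors, which set the bulk of genes equal between libraries, the sum was 324.6 ± 24.8 in muscle against 232.4 ± 32.6 in fat (SD, n = 8 each), and fat was lower in all 8 mice. On the TMM scale the H1 and H4 sums were lower in fat (82.4 against 167.4 and 62.2 against 78.9), and those of H2A, H2B and H3 were higher in fat in 6, 6 and 5 of 8 mice. Levels of single genes below are on total counts. A sum in CPM weighs each tissue by its own total RNA, and fewer cells of a type and less RNA per cell cannot be told apart in these bulk samples.

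**Figure D1:**
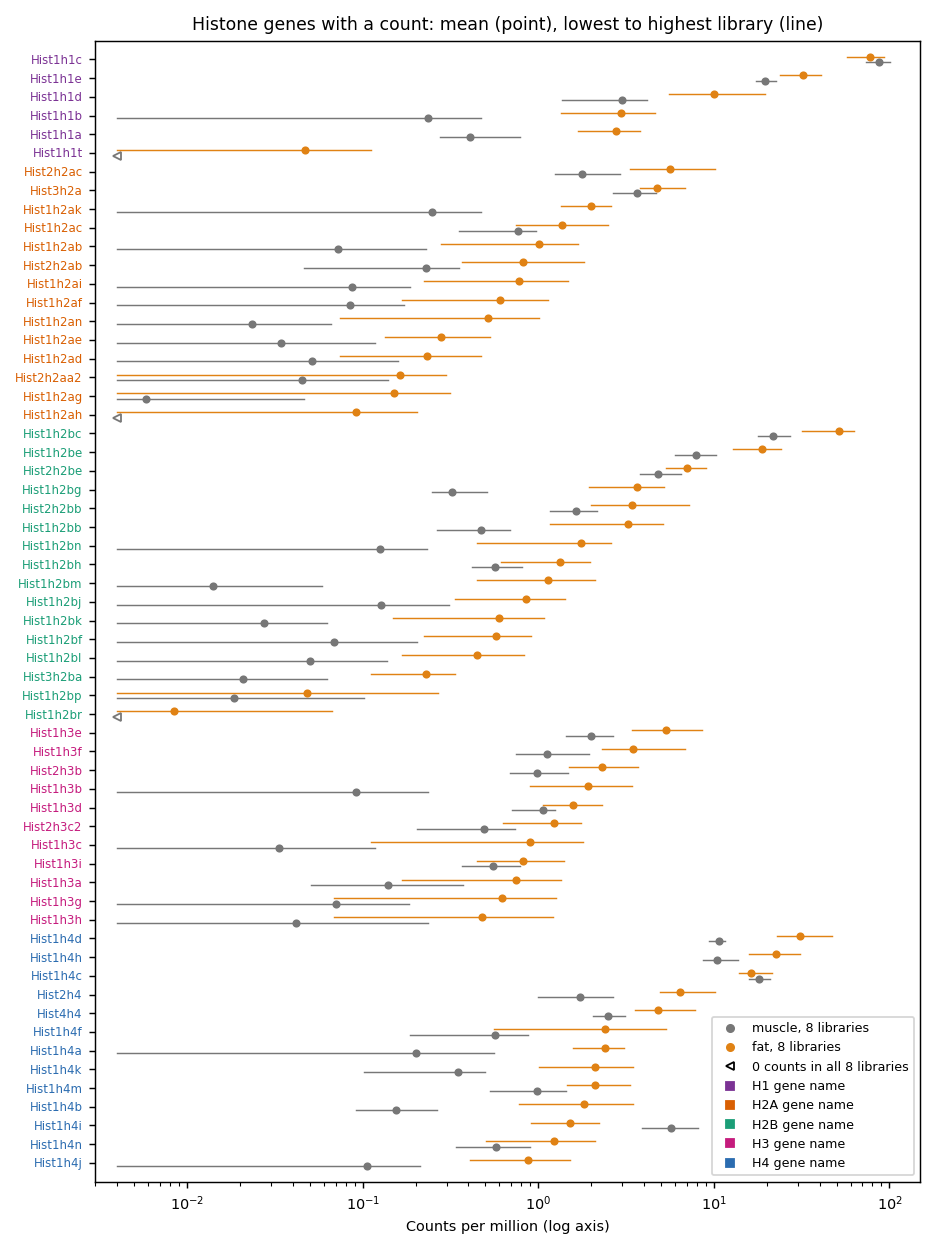
Level of the 60 detected genes in CPM on a log axis, with muscle in grey and fat in orange. Points are means of 8 libraries, lines run from the lowest to the highest library and are cut off at the left where the lowest is 0, and open triangles mark genes at 0 in all 8. On this scale, total counts, fat means exceed muscle means for 57 of the 60 genes, against 46 on the TMM scale. Of all 17084 genes tested for tissue, 79.9% were called higher in fat with total counts and 44.0% with TMM. Those shares are of calls and not of means. Hist1h4i is the clearest exception among the 60, with means of 5.70 in muscle and 1.52 in fat.

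Few genes carried most of the counts. The 10 genes with the highest mean took 87.4% of the family's counts in muscle and 76.9% in fat. In muscle, 6 genes reached 10 CPM, 12 lay between 1 and 10 CPM and 39 were detected below 1 CPM. In fat the corresponding numbers were 8, 29 and 23. By class, H1 took 51.6% of the family's counts in muscle and 35.4% in fat, H4 24.3% and 27.1%, H2B 17.8% and 26.8%, H2A 3.30% and 5.20%, and H3 3.08% and 5.48%. A level per kilobase of annotated exon allows for length but depends on where each model ends. On that scale H4 had the largest part of the summed level in muscle (38.4%), with H1 at 36.7%. In fat on that scale H4 had 38.2%, H2B 24.6% and H1 21.4%.

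The H1 genes encode linker histones, which bind the DNA between nucleosomes. Hist1h1c (ENSMUSG00000036181, chromosome 13, 23738808 to 23740367, plus strand) held 40.8% of the family's counts in muscle and 21.9% in fat and was also first per kilobase in both tissues, at 55.9 and 49.6 CPM per kb. In control muscle it was at 98.5, 83.9, 75.1 and 74.0 CPM (mice 131, 137, 138 and 11), and in knockout muscle at 88.7, 100.6, 87.7 and 89.7 CPM (mice 139, 958, 960 and 29, the order used throughout). In control fat it was at 80.7, 76.8, 85.6 and 93.4 CPM and in knockout fat at 68.5, 89.5, 57.0 and 67.5 CPM. The tissues overlapped on this scale, and fat was higher in only 2 of 8 mice. Hist1h1e came next among H1 genes, at 19.5 ± 1.85 CPM in muscle against 32.0 ± 5.64 CPM in fat, and was higher in fat in all 8 mice on total counts but in 0 of 8 on the TMM scale (SD, n = 8 each). The remaining H1 genes were lower. Hist1h1d was at 2.99 ± 1.06 CPM in muscle against 10.0 ± 4.60 CPM in fat, Hist1h1a at 0.406 and 2.76 CPM, and Hist1h1b at 0.235 and 2.95 CPM. Hist1h1a and Hist1h1b share no 51-base stretch with any other gene, and the same holds for Hist1h1t, the testis H1, which had 6 counts, none of them in muscle.

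H2A and H2B pair in the nucleosome, and their genes often stand back to back. Of 13 pairs of members whose starts face away from each other within 1000 bases, 12 join an H2A to an H2B gene, with 175 to 305 bases between them. Partners were not equally abundant. Hist1h2bc (chromosome 13, 23684199 to 23692908, plus strand) is the H2B gene with the most counts, at 21.8 ± 2.86 CPM in muscle against 51.7 ± 10.6 CPM in fat, while its partner Hist1h2ac, 250 bases away, was at 0.762 and 1.36 CPM. In fat that is a ratio of 38.0. Over the 10 pairs with both partners detected in fat, the ratio of the higher to the lower mean ran from 1.15 to 38.0. These ratios are of CPM and take no account of gene length. Per kilobase of annotated exon, Hist1h2bc was at 44.8 CPM per kb and Hist1h2ac at 0.549 CPM per kb in fat. The 250 bases before the RefSeq start of Hist1h2ac on GRCm38.p6 (chr13:23683960-23684209, minus strand) are shown because they hold all of the interval between these unequal partners except the 11 bases next to Hist1h2ac, and run 11 bases into Hist1h2bc, with 3 promoter motifs in capitals in either orientation: the CCAAT box, a TATA box spelled TATAAA, and the octamer spelled ATTTGCAT.
Hist1h2ac: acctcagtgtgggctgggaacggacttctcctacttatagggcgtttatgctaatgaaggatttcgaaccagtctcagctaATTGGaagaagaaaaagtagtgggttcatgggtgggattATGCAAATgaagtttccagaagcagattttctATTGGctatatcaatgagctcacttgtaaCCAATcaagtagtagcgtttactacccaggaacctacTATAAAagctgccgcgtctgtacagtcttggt

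RefSeq promoter windows (250 bases before to 50 after the start) were matched for 62 of the 67 genes and searched on both strands, the 3 motifs not overlapping in their letters. CCAAT was present in all 6 H1, 18 H2A, 16 H2B and 10 H3 windows and in 3 of the 12 H4 windows, and in 37.4% of all 32851 windows. ATTTGCAT was present in 7 of 18 H2A and 6 of 16 H2B windows, in no window of the other classes, and in 1.74% of all windows. TATAAA was present in 35 of the 62 windows (56.5%) and in 13.6% of all. Windows of back-to-back partners can overlap, and a motif in the overlap is then counted for both genes. A match is a description of the letters and not a bound site.

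Other H2B and H2A genes had fewer counts. Hist1h2be averaged 7.94 ± 1.5 CPM in muscle against 18.8 ± 4.39 CPM in fat. Hist2h2be and Hist2h2ac, which are partners on chromosome 3 with 238 bases between them, were closer to each other, at 4.80 and 1.76 CPM in muscle and 7.07 and 5.64 CPM in fat. Hist3h2a on chromosome 11 had the second-highest mean of the H2A genes in fat, at 4.73 ± 0.98 CPM against 3.65 ± 0.73 CPM in muscle, but 31.4% of its 51-base stretches also belong to Trim17. The class sum of H2A was thus spread over small values. The median H2A gene stood at 0.0484 CPM in muscle against 0.398 CPM in fat.

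H3 and H4 form the core of the nucleosome. No H3 gene exceeded a mean of 10 CPM. The highest, Hist1h3e, was at 2.00 ± 0.39 CPM in muscle against 5.34 ± 1.78 CPM in fat, with 72.9% of its 51-base stretches shared. The H4 genes were detected in all 13 cases in both tissues. Hist1h4c was at 18.1 ± 1.62 CPM in muscle against 16.4 ± 2.90 CPM in fat, Hist1h4d at 10.7 ± 0.86 and 30.9 ± 8.05 CPM, and Hist1h4h at 10.4 ± 1.69 and 22.7 ± 5.21 CPM. Hist1h4d and Hist1h4h were higher in fat in all 8 mice, whereas Hist1h4c was higher in only 2. On the TMM scale the corresponding numbers were 7, 5 and 0 mice. Hist4h4, the single member on chromosome 6, was at 2.50 ± 0.31 CPM in muscle against 4.80 ± 1.48 CPM in fat.

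Comparison of the tissues over all 16 libraries gave a pattern that depended on scaling. With TMM scaling, 23 of 46 genes tested were higher in fat and 8 lower at an adjusted p under 0.05 (quasi-likelihood test of edgeR). Over all 17084 genes tested, 44.0% were higher in fat and 35.7% lower. Of the 23 genes called higher, 18 did not pass the filter on low counts in muscle alone and so entered through fat, where they are high. The count of 23 thus describes the genes tested and not all members. With a filter of 1 CPM in 4 libraries, 37 members were tested, of which 16 were higher and 7 lower, beside 44.1% and 36.9% of 15859 genes. With total counts, 42 members were higher and 1 lower, beside 79.9% and 11.1% of all genes. The median of all genes moved from 0.16 to 1.36 on the log2 scale, and that of the members from 0.46 to 1.68. The same 23 genes higher and 1 gene lower were called under both scalings. Another 4 genes, Hist1h1e, Hist2h2be, Hist3h2a and Hist1h3d, were lower with TMM and higher with total counts.

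**Figure D2:**
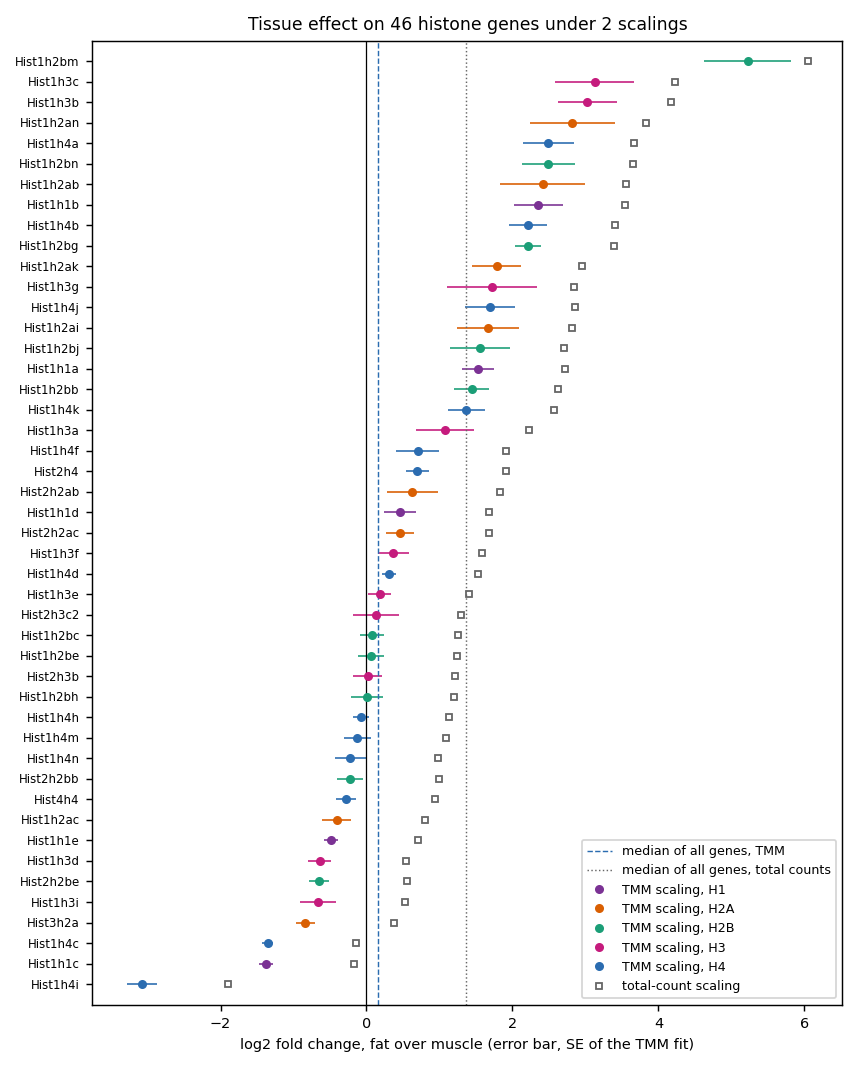
Log2 fold change of fat over muscle for the 46 genes tested, as coloured points with SE under TMM scaling and open squares under total counts. Vertical lines mark the medians of all genes under each scaling, 0.16 and 1.36. Every square lies to the right of its point, and Hist1h4i is the only gene called lower in both.

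Hist1h4i (ENSMUSG00000060639, chromosome 13, 22040636 to 22041362, minus strand) had the opposite order of tissues. In muscle it was at 6.25, 3.87, 5.37 and 5.36 CPM in controls and at 8.16, 5.06, 4.89 and 6.67 CPM in knockouts. In fat it was at 1.94, 1.81, 0.906 and 2.21 CPM in controls and at 1.71, 1.27, 1.12 and 1.25 CPM in knockouts. Every fat library was below every muscle library. The log2 fold change of fat over muscle was -3.08 (SE 0.21) with TMM and -1.90 with total counts. With 28.7% of its 51-base stretches shared, it is not among the genes most alike their copies. The 250 bases before its start (chr13:22041363-22041612 on GRCm38.p6, minus strand) are shown because it is the member called lower in fat under both scalings. They hold TATAAA, in capitals, and neither CCAAT nor ATTTGCAT.
Hist1h4i: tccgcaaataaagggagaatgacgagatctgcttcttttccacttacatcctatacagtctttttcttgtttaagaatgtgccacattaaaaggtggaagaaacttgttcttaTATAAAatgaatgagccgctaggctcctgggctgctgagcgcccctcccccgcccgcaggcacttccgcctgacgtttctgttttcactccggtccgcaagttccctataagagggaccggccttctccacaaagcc

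At the other end stood genes with few or no counts in most muscle libraries. Hist1h2bm had 2 counts in all 8 muscle libraries and 138 in the 8 fat libraries, a ratio of 82.0 after scaling to library totals (exact 95% counting interval 22.3 to 684). Hist1h2an had 3 and 65 counts, a ratio of 25.8 (8.43 to 128). These intervals cover counting error only. Hist1h3c (26.9-fold by mean CPM), Hist1h3b (21.0-fold), Hist1h2bn (13.97-fold) and Hist1h4a (11.9-fold) were also called higher in fat under both scalings. In fat Hist1h3b ranged from 0.892 to 3.40 CPM, and in muscle from 0 to 0.236 CPM. The 42 detected genes with a muscle mean below 1 CPM summed to 9.43 ± 1.02 CPM in muscle against 49.6 ± 17.3 CPM in fat, whereas the 18 genes at or above 1 CPM summed to 204.6 ± 14.7 and 303.8 ± 40.3 CPM (SD, n = 8 each). On the TMM scale the first sum was still higher in fat in all 8 mice (14.3 against 32.4), but the second was lower in fat in all 8 (310.3 ± 24.8 against 200.02 ± 23.5, SD). That split was made after the values were seen and is a description. It was cut on the muscle mean, which is also 1 side of the comparison. Genes cut as low in muscle lean to higher values in fat by that choice, and the others lean to lower.

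The genotype comparison asks how the muscle knockout of MyD88 relates to expression in each tissue. Myd88 itself, the targeted gene, was at 2.04, 2.11, 3.42 and 2.83 CPM in control muscle and at 2.24, 2.04, 1.68 and 1.98 CPM in knockout muscle. The 2 genotypes overlapped, and the log2 fold change of -0.47 did not pass the test in muscle (adjusted p = 0.949, edgeR). In fat it was at 15.7, 14.1, 20.2 and 16.6 CPM in controls and at 15.0, 17.7, 13.8 and 15.1 CPM in knockouts. A count over the whole gene does not show which exons a deletion removed, so it is a weak check of the labels.

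In muscle no histone gene passed the test of genotype. Of 26 members tested, 0 were called by edgeR and 0 had an unadjusted p under 0.05, beside 0.0141% (2 genes) and 5.04% of all 14183 genes. DESeq2 and limma voom also called none. Fitted changes lay below 0 in 11 of the 26 members and in 49.2% of all genes, with a median of 0.05 on the log2 scale. The smallest p belonged to Hist1h4d, at 11.2, 11.6, 9.85 and 11.5 CPM in controls and 10.4, 9.34, 11.4 and 10.2 CPM in knockouts. Its genotypes overlapped, and the log2 fold change was -0.17 (SE 0.10, adjusted p = 0.949). Hist2h4 had the next smallest p, with a log2 fold change of 0.38 (SE 0.25).

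In fat the members leaned to lower values in knockouts, without single genes passing the main test. The summed level of the family was 391.8 ± 43.5 CPM in controls against 314.9 ± 39.1 CPM in knockouts (SD, 4 mice each), with the libraries at 369.7, 341.3, 429.6 and 426.5 CPM in controls and 321.3, 345.0, 258.1 and 335.4 CPM in knockouts. Knockout mouse 958 lay above control mouse 137, so the groups overlapped. They did not overlap on the TMM scale, at 227.9 to 281.6 in controls and 180.4 to 222.1 in knockouts, a ratio of 0.82. By class the ratio of knockout to control was lowest for H3 (24.2 to 14.5 CPM, a ratio of 0.60), then 0.70 for H2A, 0.79 for H1, 0.84 for H4 and 0.86 for H2B. Without mouse 138 the control sum was 379.2 ± 43.4 CPM (SD, n = 3), and the ratios were 0.83 for the family, 0.65 for H3, 0.79 for H2A, 0.81 for H1, 0.95 for H4 and 0.80 for H2B. In H3 and H2A every knockout library was below every control library. In muscle the ratio of the family's sums was 1.08.

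**Figure D3:**
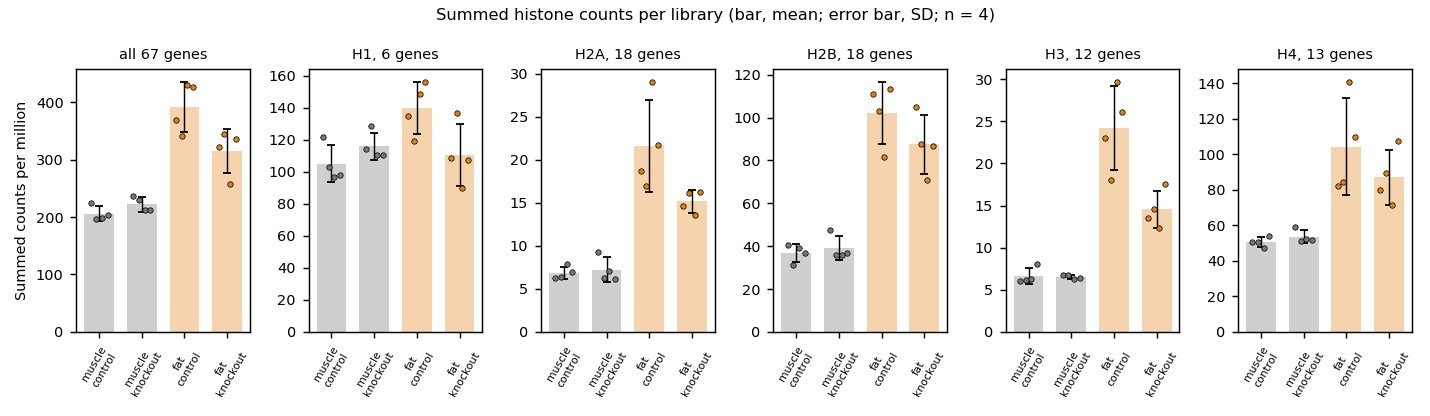
Summed CPM of all 67 genes and of each class in muscle (grey) and fat (orange) of controls and knockouts. Bars are means of 4 libraries, error bars SD, points single libraries. In fat the H3 sum went from 24.2 in controls to 14.5 in knockouts with no overlap, while the muscle bars of each class are close to each other.

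Of 46 members tested in fat, 0 were called by edgeR at an adjusted p under 0.05, beside 1 of all 16323 genes (0.00613%). An unadjusted p under 0.05 with a lower value in knockouts was found for 19 of the 46 members and for 4.1% of all genes. Fitted changes were below 0 for 45 of 46 members, Hist2h2be being the exception at 0.17, and for 52.1% of all genes. The median change of the members was -0.56 and that of all genes -0.01 on the log2 scale. On total counts, all 4 knockouts lay below all 4 controls for 14 of the 46 members and for 2.27% of all genes. DESeq2 called 4 members lower in knockouts (Hist1h2bb, Hist1h3b, Hist1h2ai and Hist1h2an), beside 0.239% of all genes, and limma voom called 0. Hist1h2ai and Hist1h2an passed the filter on low counts through the controls, where they are higher, and were not among the 37 members tested with a filter of 1 CPM in 4 libraries. With the 1 CPM filter the median change of the members was -0.43, and without a filter it was -0.62 (edgeR). Other members of few counts could also pass either filter through the 4 controls alone, and their changes are then below 0 by selection. The counts of 45, 19 and 14 thus describe the genes tested and not all members. The members share libraries and, in part, sequence, so these counts do not stand for independent genes.

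**Figure D4:**
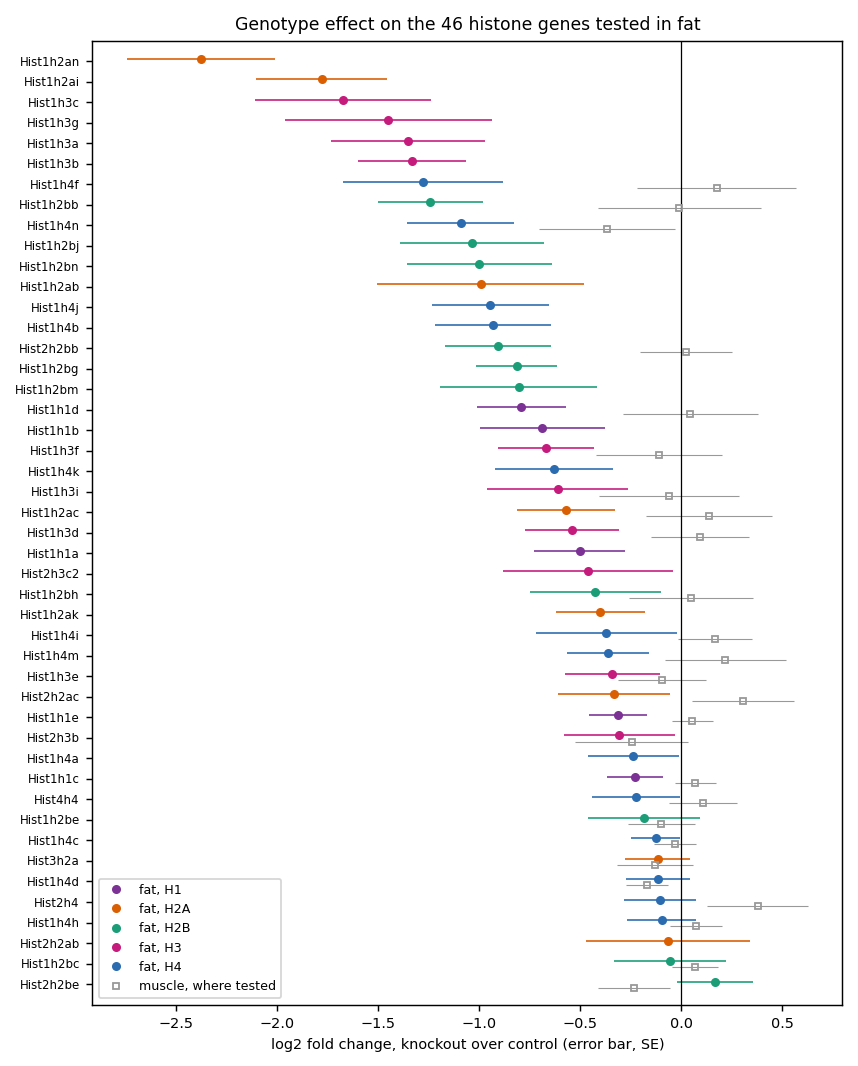
Log2 fold change of knockout over control with SE for the 46 genes tested in fat, coloured by class, and for those also tested in muscle, as open grey squares. Points in fat lie to the left of 0 for 45 of 46 genes, and the squares lie on both sides of 0.

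Hist1h2an, an H2A gene, had the smallest p in fat. It was at 0.889, 0.871, 0.755 and 1.004 CPM in controls and at 0.205, 0.0745, 0.223 and 0.125 CPM in knockouts. The groups were far apart, at a log2 fold change of -2.38 (SE 0.37), and the adjusted p was 0.294 with edgeR and 0.0197 with DESeq2. These values rest on 65 counts in 8 libraries, and 85.7% of the gene's 51-base stretches are shared. Hist1h2ai, also H2A, was at 1.36, 0.737, 1.28 and 1.47 CPM in controls and at 0.341, 0.447, 0.223 and 0.375 CPM in knockouts. Its log2 fold change was -1.78 (SE 0.32), with an adjusted p of 0.588 by edgeR and 0.0400 by DESeq2, and it shares 90.1% of its stretches.

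Hist1h3b, an H3 gene, was at 3.40, 1.74, 3.10 and 2.81 CPM in control fat and at 1.30, 1.04, 0.892 and 1.06 CPM in knockout fat. The lowest control was above the highest knockout, the log2 fold change was -1.33 (SE 0.27), and the adjusted p was 0.588 with edgeR and 0.0197 with DESeq2. Hist1h2bb, an H2B gene that stands beside Hist1h3c, was at 4.71, 3.62, 5.14 and 4.95 CPM in controls and at 2.18, 1.64, 1.17 and 2.63 CPM in knockouts. It has more counts than the 3 genes before it (473 in all libraries) and a smaller shared part (39.96%). Its log2 fold change was -1.24 (SE 0.26), with an adjusted p of 0.588 by edgeR and 0.00726 by DESeq2.

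The other genes with the smallest p in fat were Hist1h4n and Hist1h2bg. Hist1h4n was at 1.31, 1.34, 2.11 and 2.01 CPM in controls and at 0.818, 0.671, 0.502 and 1.06 CPM in knockouts, and Hist1h2bg at 4.66, 3.82, 5.21 and 4.95 CPM and at 2.45, 2.53, 1.95 and 3.44 CPM. In both the groups did not overlap, and neither passed the adjusted test with either tool. Hist1h2bc, second in counts, was at 60.9, 59.97, 31.9 and 57.7 CPM in control fat and at 62.9, 47.7, 44.7 and 48.2 CPM in knockout fat, with a log2 fold change of -0.05 (SE 0.28). Hist1h1d, also among the genes with many counts (1657), was at 10.4, 7.84, 19.6 and 13.8 CPM in controls and at 7.57, 8.2, 5.52 and 7.19 CPM in knockouts, with a log2 fold change of -0.79 (SE 0.22, adjusted p = 0.588 by edgeR and 0.130 by DESeq2). Its groups overlapped on total counts, since knockout mouse 958 lay above control mouse 137, but not on the TMM scale. Of the 10 genes with the most counts, the other 9 lay between -0.31 and 0.17, and the median of the 10 was -0.12. Over the tested members, total counts and the log2 fold change in fat had a Spearman rank correlation of 0.73. Among the tested members, genes with few counts lay further below 0, with exceptions such as Hist2h2ab at -0.07 and Hist1h4a at -0.24. Members of few counts could pass the filter through the controls alone, and total counts include the knockout libraries. This trend and the medians that follow can therefore in part be set by selection, and describe the genes tested. The median was -0.87 for the 28 tested genes with muscle means below 1 CPM and -0.23 for the 18 above, a division made after seeing values. Without the filter on low counts, the means of 57 of the 60 detected genes were lower in knockout fat. These 57 include genes with hardly any counts, such as Hist1h1t with 6 in all libraries. No share over all genes is given on this measure, so the count is a description.

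**Figure D5:**
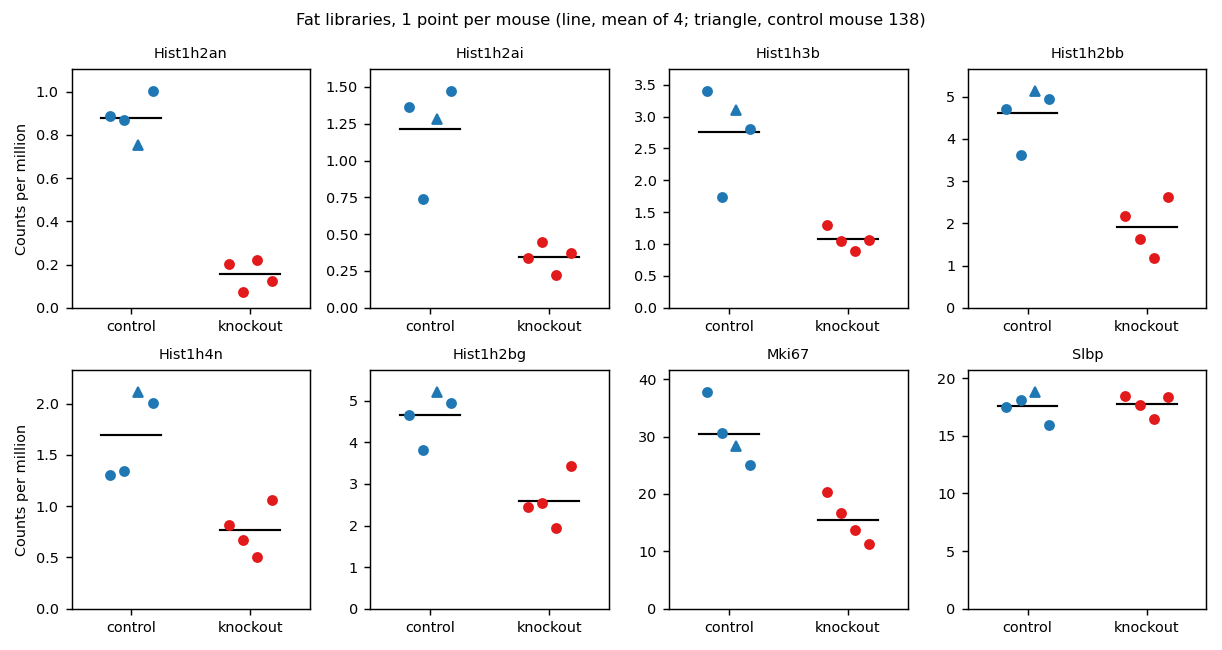
CPM in the 8 fat libraries for the 6 histone genes with the smallest p, for the proliferation marker Mki67 and for Slbp, 1 point per mouse, with a line at the mean of 4 and a triangle for control mouse 138. Knockout points lie below control points in the 6 histone genes and Mki67, and the groups overlap for Slbp.

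The difference between the genotype effects in fat and muscle was tested as an interaction. It was called for 0 of 46 members and for 0.0% of all 17084 genes by edgeR, with 4 of the 46 members and 7.19% of all genes at an unadjusted p under 0.05, and DESeq2 and limma voom also called 0 members. The interaction was below 0 for 42 of 46 members and for 54.4% of all genes, with a median of -0.56. Below 0 means lower in knockout fat than in knockout muscle, relative to controls. Of the members, 26 passed the filter on low counts in muscle alone and in fat alone. Others could pass through the fat controls, where they are higher, so the count of 42 describes the genes tested and not all members. The smallest p was that of Hist2h2bb (adjusted p = 0.659, edgeR), a gene whose 51-base stretches are all shared with genes that overlap it. A difference between tissues is therefore not shown for single members.

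Among the fat libraries, that of control mouse 138 differed from the other 7 in its tissue markers. Its adipocyte markers summed to 5645 CPM against 21177 to 25477 in the others. Its smooth muscle markers summed to 22220 CPM against 411 to 1065, and its urothelial markers to 1444 CPM against 5.29 to 12.9. Oviduct markers summed to 503.8 CPM against 5.45 to 9.48, mesothelial markers to 1215 CPM against 60.2 to 268.0, and fibroblast markers to 6588 CPM against 1548 to 2862. The part of these cell types in the histone values of control fat was not tested. Of the 10 histone genes with the most counts, Hist1h2bc had its lowest fat value in this library (31.9 CPM). Hist1h4d (47.3 CPM), Hist1h1d (19.6 CPM), Hist1h4h, Hist1h4c, Hist2h2be and Hist3h2a had their highest fat value in it. Further members also had their highest fat value there, among them Hist2h4 (10.1 CPM), Hist2h2ac (10.2 CPM), Hist1h3e (8.61 CPM) and Hist4h4 (7.78 CPM). Hist1h4i had its lowest there (0.906 CPM). Without mouse 138, edgeR called 0 of 47 members in fat, beside 0.0362% of all genes, and DESeq2 called 3 lower, beside 1.18%. The 3 were Hist1h3b, Hist1h2bb and Hist1h2bg. With edgeR 24 of the 47 had an unadjusted p under 0.05 in that fit, beside 16.6% of all genes. Fitted changes were then below 0 for 43 of 47 members and for 48.4% of all genes, with a median of -0.61. Members of few counts could pass the filter through the controls here too, so the counts of 24 and 43 describe the genes tested.

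Other genes of the histone pathway were set beside the members. In fat 7.99% of all genes had an unadjusted p under 0.05 by edgeR. The list of replication-independent histone variants, such as H2afz, H3f3a and H3f3b, which are expressed outside S phase too, had 0 of 11 genes called in fat by edgeR or DESeq2, with 2 at an unadjusted p under 0.05, 10 below 0 and a median of -0.16. Genes of histone mRNA processing, such as Slbp, Npat and Lsm11, had 0 of 17 tested genes called by either tool, with 3 at an unadjusted p under 0.05 (edgeR), 8 below 0 and a median of 0.02. Slbp was at 17.5, 18.1, 18.8 and 15.9 CPM in control fat and at 18.5, 17.7, 16.5 and 18.4 CPM in knockout fat. The genotypes overlapped. Genes of histone chaperones had 0 of 15 called by either tool and 0 at an unadjusted p under 0.05, with 12 below 0 and a median of -0.08.

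Genes of the cell cycle had lower values in knockout fat, as the histone genes did, again without passing the main test. The S-phase list had 0 of 26 genes called by edgeR and 1, Uhrf1, by DESeq2, with 8 at an unadjusted p under 0.05 (edgeR), 25 below 0 and a median of -0.22. The list of mitosis genes had 0 of 18 called by edgeR and 1, Tpx2, by DESeq2, with 11 at an unadjusted p under 0.05, 18 below 0 and a median of -0.93. Without mouse 138 DESeq2 called 1 S-phase gene and 3 mitosis genes. Mki67 was at 37.8, 30.6, 28.3 and 25.0 CPM in controls and at 20.3, 16.8, 13.8 and 11.3 CPM in knockouts, and Top2a, the topoisomerase of dividing cells, at 23.0, 14.6, 17.2 and 16.1 CPM and at 12.1, 7.45, 5.52 and 7.76 CPM. Neither overlapped between genotypes. In summed level the mitosis genes ranged from 87.1 to 126.4 CPM in control fat and from 44.8 to 75.5 CPM in knockout fat. The S-phase genes ranged from 221.4 to 290.2 CPM in control fat and from 192.9 to 224.4 CPM in knockout fat, so their sums overlapped. In muscle the fitted median was 0.05 for the 6 mitosis genes tested and 0.12 for the 19 S-phase genes tested.

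Markers of other cell types were read in the same fat libraries. Macrophage markers, 10 genes with none at 0 in every fat library, summed to 841 to 1298 CPM in control fat and 665 to 1239 CPM in knockout fat, and 9 of 10 had a fitted change below 0. Erythroid markers summed to 127.9 to 304.6 CPM in control fat and 97.6 to 188.1 CPM in knockout fat, with 5 of 5 tested genes below 0. Endothelial markers summed to 492 to 781 CPM in control fat and 786 to 917 CPM in knockout fat, with 0 of 7 below 0. None of these genes was called by edgeR, DESeq2 or limma voom with all 8 libraries, and their part in the histone values was not tested. B-cell markers (2.57 to 5.49 CPM in controls, 3.0 to 5.14 CPM in knockouts) and T-cell markers (4.42 to 9.63 CPM and 3.82 to 8.76 CPM) were low in fat of both genotypes.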

How the data were processed

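The authors deposited raw counts of reads per Ensembl gene, 1 column for each of 16 libraries, unscaled. The build GRCm38 and the tools DESeq2 1.22.2, featureCounts 1.6.3 and STAR 2.7.0f are named, per the submitters' processing notes, without their roles. The strand setting and the treatment of multimapping reads were not given in the sources used here. Libraries were stranded and made from total RNA without ribosomal RNA, per the labels' protocols.

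From the counts, CPM were computed from library totals. Genotype was tested in each tissue, and tissue and the interaction over 16 libraries, in edgeR 4.0.16 by its quasi-likelihood F test (R 4.3.3, TMM, filterByExpr, robust), with Benjamini-Hochberg adjustment over all genes and a threshold of 0.05. An SE was derived from the fold change and its F statistic (the size of the log2 change over the root of F). Gene symbols, coordinates and transcripts come from GENCODE M21, in which all 55536 identifiers were found, and promoters from RefSeq (GRCm38.p6). Members and lists were chosen with earlier results of these data known. Named genes are the 10 members with most counts, the 6 with the smallest p per genotype test, up to 6 per direction of tissue change, the top H3 gene and the chromosome 6 gene. Hist1h1a, Hist1h1b, Hist1h1t, Hist1h2ac, Hist1h3d, Hist2h2ab, Hist2h2bb, the genes without counts, the list examples and the marker lists printed were named after values were seen.

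Alternatives were RLE and total-count scaling, no filter, a filter of 1 CPM in 4 libraries, DESeq2, limma voom, a replicate block by mouse, and omission of each mouse. Sums scaled by the TMM factors of the 16-library fit, and fits without mouse 138 combined with the block or another tool, were chosen after seeing the data. The subject numbers pair muscle and fat of an animal. Deviations of paired libraries from their group means correlated at -0.02 to 0.16 across 17084 genes, and 5 of 8 muscle libraries had the highest value with their own number. These were all the knockouts, at 0.104 to 0.155, and of the controls only mouse 131. Controls correlated at -0.018 to 0.031, so that their pairing rests on the subject numbers. No 2 libraries of a group agreed within sampling noise. Nothing states whether mice came from separate litters. The procedure was tested on simulated data. Depth limits genes of few counts, since reads carry no molecular identifiers and intervals cover counting error only.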

Additional observations from a re-analysis of the deposited data

Results flagged for a closer look

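The gap between the highest or lowest library and the nearest other was compared with Dixon's 95% critical value in 107 groups of 4 libraries of single members. It was exceeded in 5 groups, and chance alone flags about 1 in 20 groups. Hist1h1c in knockout muscle was at 100.6 CPM in mouse 958 and at 87.7 to 89.7 CPM in the others. Hist1h2bc in control fat was at 31.9 CPM in mouse 138 and at 57.7 to 60.9 CPM in the others, in the library whose adipocyte markers summed to 5645 CPM. Hist1h4c in knockout fat was at 18.4 CPM in mouse 29 and at 13.9 to 14.7 CPM in the others. Hist1h2an in knockout muscle was at 0.0623 CPM in mouse 139 and at 0 in the others, which is a single count. Hist1h2bg in control muscle was at 0.512 CPM in mouse 137 and at 0.263 to 0.294 CPM in the others.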

How the results depend on the processing

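Counts of called members stayed within 1.5 times the reported count in 74 of 78 alternative counts. For genotype and the interaction the reported count was 0, so staying within that range means 0 again. The median change by genotype in fat stayed below 0 in every alternative run (-0.70 to -0.43), and that in muscle, 0.05, ran from -0.01 without mouse 137 to 0.12 with total counts. DESeq2 called 4 members in fat instead of 0, and 3 without mouse 138. With total counts 42 members were higher in fat and 1 lower, against 23 and 8 with TMM, since the median of all genes moves with the scaling. The log2 ratio of fat over muscle went from 0.72 on total counts to -0.48 with TMM factors for the family's sum. It went from 0.57 to -0.63 for genes with muscle means of 1 CPM or more, and from 2.39 to 1.18 for genes below. The cut at 1 CPM used the muscle values that also enter the ratio. Of single genes, 350 alternative values kept their result, called or not called, while 3 were reversed, 7 stronger and 6 weaker. With total counts the tissue direction turned for 11 members. Among them Hist2h2be (0.56), Hist3h2a (0.37), Hist1h1e (0.71) and Hist1h3d (0.54) were called each way and Hist1h3i (0.53) was not called. With total counts Hist1h1c (-0.17) and Hist1h4c (-0.15) lost their call. Hist1h3i also lost its call without the filter on low counts and without mouse 137, 958 or 960 (-0.59 to -0.51). The cause was not tested. With the mouse as replicate block, which applies to the tissue and interaction fits, 22 members were higher in fat and 8 lower, and the interaction was called for 0. Under the block Hist2h2ac and Hist1h4f lost their tissue call (edgeR adjusted p = 0.0771 and 0.0734, against 0.0410 and 0.0426), and Hist1h1d gained one (log2 fold change 0.51, adjusted p = 0.00535, against 0.0639). Leaving out 1 mouse at a time gave 0 calls by genotype in either tissue and 0 interactions, 20 to 27 members higher in fat and 7 to 10 lower, and a fitted median by genotype in fat from -0.70 to -0.50. In muscle that median ran from -0.01 to 0.06, below 0 only without mouse 137. Depth limits the genes with under 1 CPM, and shared sequence limits the genes whose copies are near-identical.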
